A study of Mus musculus with 11 samples.

Results

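The S100 genes encode small calcium-binding proteins, and 9 of them were followed through the tubular, stromal and immune cells of the mouse kidney: S100a1, S100a4, S100a6, S100a8, S100a9, S100a10, S100a11, S100a13 and S100a16. The members were taken by gene symbol and made up 9 of the 28692 genes in the count matrices. Each was read in every cell class and, beside it, in barcodes of 10 to 100 UMIs. These are called empty droplets here and were taken to hold free RNA and no cell. Single-cell libraries (10x, 3′ ends, with a unique molecular identifier or UMI per molecule) had been made from 11 adult mouse kidneys. The mice of all groups were male C57Bl/6, operated on at 10 weeks of age, with naive controls matched in age, strain and sex per the paper. Naive kidneys gave 5 control libraries (Ctrl, N1, N2, AN1 and AN2, 3 sets by their names). Kidneys taken at day 28 after unilateral ischemia-reperfusion (UIR, 30 min clamping of the left renal pedicle) gave 3 libraries (UIR, UIR1, UIR2), and kidneys at day 28 of unilateral ureteral obstruction (UUO, a permanent tie of the left ureter) gave 3 more (UUO, UUO1, UUO2). The naive controls had no operation, and no group carried an allele or drug treatment in the labels.

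S100 proteins carry a pair of EF-hand motifs, mostly work as dimers, and expose a binding surface when calcium rises. S100A10 is the exception that no longer binds calcium and sits in a complex with annexin A2 at the plasma membrane, S100A11 binds annexin A1, and S100A6 (calcyclin) binds the calcyclin-binding protein Cacybp. S100A4 binds non-muscle myosin and is widely used as a marker of motile mesenchymal and immune cells. S100A8 and S100A9 form calprotectin, the dominant cytosolic protein of neutrophils, which is released at sites of inflammation and acts through TLR4 and RAGE (Ager). S100A13 takes part in the release of FGF1, and S100A1 is best known from heart muscle.

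The 9 genes lay on mouse chromosome 3 (GRCm38). Of these, 7 neighbours filled 184.688 kb between 90511034 and 90695721. S100a1 (ENSMUSG00000044080, 90511034 to 90514392, minus strand) and S100a13 (90514435 to 90524581, plus strand) stood head to head with 42 bases between their starts. S100a16 (90537254 to 90543151), S100a4 (90603771 to 90606045), S100a6 (90612882 to 90624181) and S100a8 (90668978 to 90670035) followed on the plus strand and S100a9 (90692632 to 90695721) on the minus strand. S100a11 (93520488 to 93526287) and S100a10 (93555080 to 93564643) lay apart, both on the plus strand. S100a4 overlapped the model Gm42674 on the same strand, so its reads could be shared with that model.

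Promoter sequences of RefSeq (GRCm38.p6, 250 bases before to 50 after the start) were found for 8 of the 9 members, with 2 for S100a16; S100a10 had no entry. The promoters of S100a6 and S100a11 are shown because these genes were higher in 4 or 5 classes after each injury, and those of S100a8 and S100a9 because both genes were read from the same cells. Capitals mark matches, on either strand, to the AP-1, C/EBP, TATA and CCAAT motifs, whose letters are given after the sequences and which did not overlap one another here.
S100a6, chr3:90612644-90612943, plus strand: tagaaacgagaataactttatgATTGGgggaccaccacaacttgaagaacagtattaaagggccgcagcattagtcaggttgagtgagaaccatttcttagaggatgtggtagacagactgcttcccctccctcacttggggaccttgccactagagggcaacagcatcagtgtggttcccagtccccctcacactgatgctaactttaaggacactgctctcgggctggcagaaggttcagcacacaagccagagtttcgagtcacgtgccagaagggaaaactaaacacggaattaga
S100a11, chr3:93520246-93520545, plus strand: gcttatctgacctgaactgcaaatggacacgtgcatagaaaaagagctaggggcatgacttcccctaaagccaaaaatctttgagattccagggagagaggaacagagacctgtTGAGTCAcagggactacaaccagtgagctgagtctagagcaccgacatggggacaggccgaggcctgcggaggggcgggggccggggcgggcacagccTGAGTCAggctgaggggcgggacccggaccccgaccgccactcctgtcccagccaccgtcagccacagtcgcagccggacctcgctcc
S100a8, chr3:90668821-90669120, plus strand: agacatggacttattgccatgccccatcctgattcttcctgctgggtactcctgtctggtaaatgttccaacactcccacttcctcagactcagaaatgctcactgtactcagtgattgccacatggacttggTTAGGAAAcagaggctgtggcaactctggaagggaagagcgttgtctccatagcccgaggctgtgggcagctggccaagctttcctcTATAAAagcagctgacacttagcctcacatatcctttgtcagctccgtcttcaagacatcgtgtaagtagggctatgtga
S100a9, chr3:90695672-90695971, minus strand: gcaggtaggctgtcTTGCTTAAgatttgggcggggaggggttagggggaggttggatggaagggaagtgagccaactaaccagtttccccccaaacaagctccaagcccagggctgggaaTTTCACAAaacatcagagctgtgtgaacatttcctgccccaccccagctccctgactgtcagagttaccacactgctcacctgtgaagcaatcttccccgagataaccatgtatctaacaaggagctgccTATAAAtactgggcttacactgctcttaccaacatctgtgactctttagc
The AP-1 letters TGANTCA occurred in the S100a11 promoter at 136 and 38 bases before the start, in 1 of the 2 S100a16 promoters at 192 bases, and in 7.81% of all 32851 promoters. The C/EBP letters TTNNGNAA stood in S100a8 at 117 bases and in S100a9 at 236 and 130 bases before the start, against 40.7% of promoters overall. A TATA match lay 30 bases before the start of S100a8 and 31 bases before that of S100a4, the match in S100a9 began at the listed start itself, and TATAAA was found in 13.6% of promoters. The S100a6 promoter held a CCAAT match 228 bases before its start, a feature of 37.4% of promoters, and no match to the AP-1, C/EBP or TATA letters. The letters GGAATG (TEAD, 14.7% of promoters) were in no member's window. A match is a description of letters and not a binding site.

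The libraries held 49503312 to 117043590 UMIs each, with fewer in UUO (49503312 to 60918546) than in control (91920461 to 110914244) or UIR (82522753 to 117043590). Filtering left 40489 cells, 10242 of control, 16928 of UIR and 13319 of UUO, with medians of 2406 to 5003 UMIs per cell and library. Of the barcodes called as cells, 57.0 to 78.7% in the control libraries were over the mitochondrial limit, against 23.6 to 36.9% for UIR and 3.13 to 7.67% for UUO, so the groups had been sampled to different degrees. Cells in clusters that the markers left unnamed made up 3.85 to 7.70% of control, 14.6 to 19.8% of UIR and 10.7 to 16.9% of UUO libraries. Control kidneys gave 3 neutrophils, 15 monocytes and 3 Fibro 1 cells, so these classes had no control level. Any pair of libraries shared at most 18 barcodes (0.328% of the cells of the smaller library). The library names set the controls in series (Ctrl, N and AN) and leave a UIR and a UUO library without a number. Whether libraries of different groups shared a run is not stated, so batch and group cannot be told apart by the labels. Levels below are UMIs of the gene per 1000000 UMIs (CPM) summed over the cells of a class in a library, as mean ± SD over libraries. Differences are log2 fold changes ± SE from edgeR's quasi-likelihood test on those sums, with Benjamini-Hochberg adjusted p-values over all genes tested in the class and a threshold of 0.05. The study's methods count mice per group, so each library was taken as a separate mouse.

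The members differed in the cells they were read in. S100a1 was a gene of the distal nephron: in control libraries it stood at 1907 ± 360 CPM in intercalated cells, 1291 ± 212 in distal tubule, 1144 ± 170 in principal cells, 777 ± 70.0 in loop of Henle and 270 to 306 in proximal tubule (PT; n = 5 each), against 28.4 CPM in T/NK cells. The ranges of intercalated cells and distal tubule overlapped, as did those of distal tubule and principal cells, whereas PT lay below every other tubular class. S100a4 was read mostly in immune and endothelial cells. It reached 1458 ± 7.93 CPM in the monocytes and 1557 ± 123 in the cDC2 dendritic cells of UUO (n = 3) and 352 ± 138 in control T/NK cells (n = 4), stood at 230 ± 36.3 CPM in control endothelial cells (n = 5), and was at 0.177 CPM over all control tubular cells. S100a8 and S100a9 belonged to neutrophils, at 35150 ± 5587 and 31880 ± 739 CPM in the 3 UUO libraries. The single values were 41600, 31900 and 31960 CPM for S100a8 and 32400, 31040 and 32220 CPM for S100a9.

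S100a6 was found in all 3 compartments. Its order in UUO ran from neutrophils (3097 ± 1293 CPM, n = 3), loop of Henle (2918 ± 699), monocytes (2649 ± 360), failed repair tubular cells (frTEC, 2634 ± 891, n = 2) and cDC2 (2446 ± 191), which overlapped one another, to Fibro 1 fibroblasts (2083 ± 193), whose 3 libraries overlapped only neutrophils and frTEC among these, then principal cells (1854 ± 1002), T/NK cells (1412 ± 227), endothelial cells (1368 ± 136) and distal tubule (1193 ± 228), then Fibro 2 (770 ± 138, n = 2), Fibro 3 (367 ± 59.8) and cDC1 cells (331 ± 121), down to macrophages (139 ± 27.1), intercalated cells (134 ± 25.9), PT (104 ± 108), B cells (73.6) and podocytes (42.4 ± 14.2, n = 2). Among the control pools of the classes common to all groups, S100a10 was highest in T/NK cells (887 ± 89.8 CPM) and endothelial cells (701 CPM). Within the control libraries S100a11 was highest in the frTEC of the 1 library that had 20 of them (1658 CPM), followed by podocytes (1363 CPM), intercalated cells (1173 ± 180) and principal cells (864 ± 330), with 67.7 CPM in macrophages, whereas its highest UUO levels were those of neutrophils (2467 ± 691 CPM) and principal cells (2139 ± 401). S100a13 and S100a16 were highest in control endothelial cells, at 573 ± 46.0 and 535 ± 58.3 CPM. S100a16 was nearly missing from immune cells, at 1.80 CPM over all control immune cells.

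**Figure D1:**
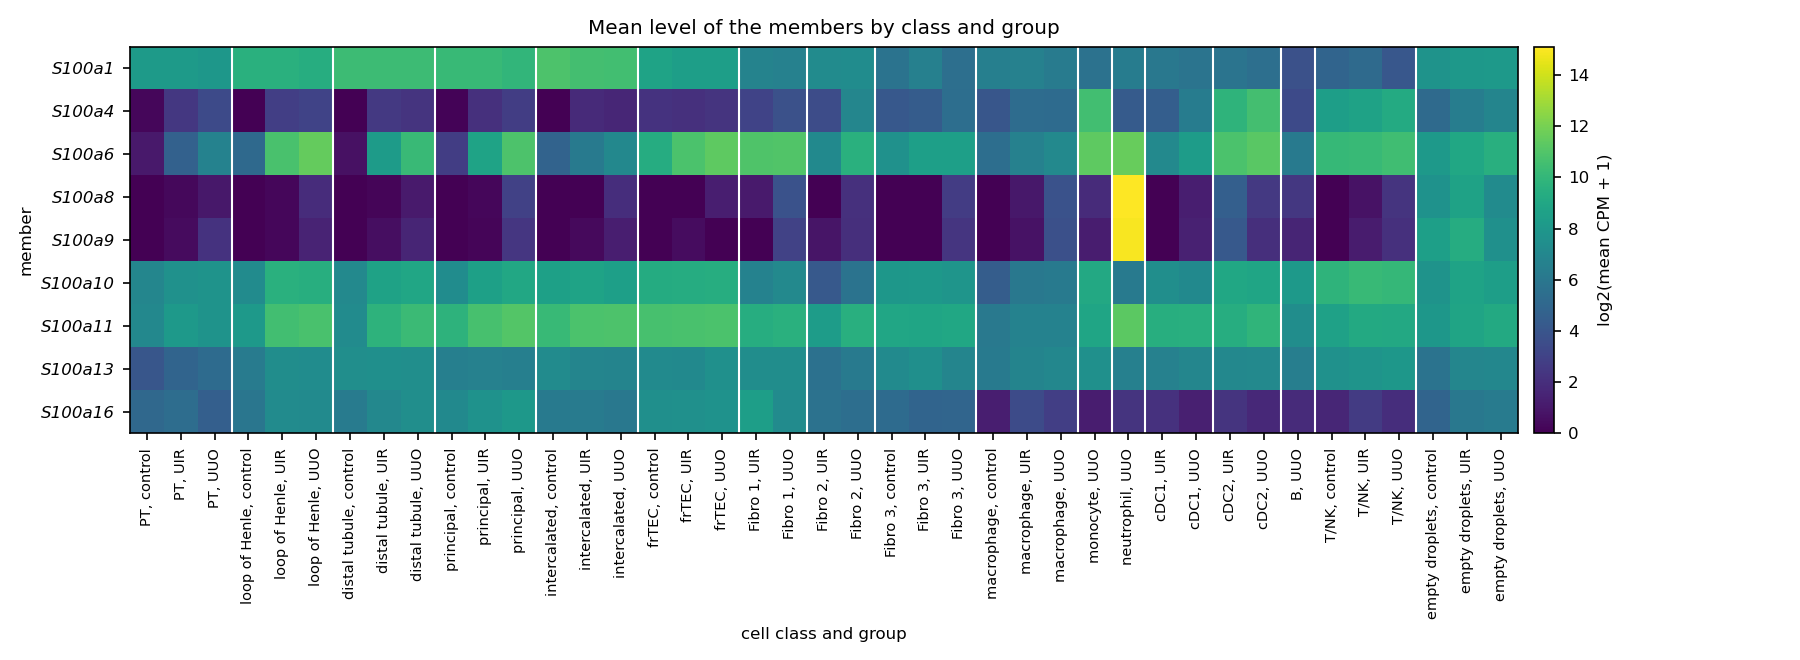
Mean level of the 9 S100 genes (vertical axis) by cell class and group (horizontal axis), with empty droplets at the right, as colours of log2(mean CPM + 1); groups with no library of 20 cells of a class are left out. S100a8 and S100a9 were brightest in UUO neutrophils, S100a1 in intercalated cells and S100a4 in monocytes and cDC2 cells, and S100a16 was dark in immune cells.

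Within libraries, the sums of all immune (n = 11), stromal (n = 9) and tubular cells (n = 11) were compared with the library as a block. Immune cells held more of 5 members and less of 3 than tubular cells, where 34.2% of all genes were higher and 41.5% lower. S100a4 was higher by 7.32 ± 0.49 (adjusted p = 2.6e-12), S100a13 by 0.94 ± 0.16 and S100a6 by 1.59 ± 0.66 (adjusted p = 0.0331), while S100a16 was at -4.56 ± 0.28, S100a1 at -3.28 ± 0.16 and S100a11 at -0.84 ± 0.17 (adjusted p = 0.000126). S100a10 gave 0.40 and did not pass (adjusted p = 0.17). The S100a6 direction was that of the control libraries only: its immune level was above the tubular level in 5 of 5 control libraries (408 to 533 against 2.16 to 98.8 CPM) and below it in 3 of 3 UIR (542 to 896 against 597 to 1284 CPM) and 3 of 3 UUO libraries (779 to 1360 against 1377 to 2736 CPM). Stromal cells held more of S100a4 than tubular cells, at 2.60 ± 0.53 (adjusted p = 0.000199), and less of S100a1, S100a10 (-1.57 ± 0.31) and S100a11, where 24.8% of genes were higher and 33% lower. For S100a10 and S100a11 this direction was that of all 6 injured libraries, and in the 3 control libraries with enough stromal cells both genes were higher in the stromal sum. Between immune and stromal cells 5 members were higher and S100a16 was lower, at -4.36 ± 0.29, against 33% and 29.3% of all genes. In control, S100a8, S100a9 and S100a13 were higher in the immune sum in 1 of 3 libraries each, S100a10 in 2 and S100a4 in 3. The injured libraries all went with the fit except for S100a13, which was higher in 2 of 3 UUO libraries. A sum over a compartment moves with the share of its classes as well as with the level in each class, and these cannot be told apart in it.

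Control and injured kidneys were then compared class by class, which asks how the members stood in the surviving and remodelled nephron at day 28. After UIR, 22 of 45 tested pairs of member and class were higher than in control and 1 was lower, in 7 classes. After UUO, 22 of 52 were higher and 4 lower, in 8 classes. Both comparisons used the same control libraries. By class, 6 of 7 members were higher in loop of Henle after UIR and 6 of 7 after UUO (16.7% and 19.9% of all genes), 4 of 6 in distal tubule after either injury (17.7% and 21.6%), 3 and 4 of 6 in principal cells (8.81% and 18.8%), and 5 and 2 of 7 in PT (9.03% and 2.42%). Intercalated cells had 0 and 1 of 6 (5.41% and 10.5%). Over all genes and classes 9.1% of pairs were higher and 7.96% lower after UIR, and 10.7% higher and 9.84% lower after UUO. The median difference of the 7 members tested in loop of Henle was 2.03 after UIR, against 0.07 for all genes there.

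S100a6, the calcyclin gene, was nearly absent from the control distal nephron and was read in most loop of Henle cells of the injured kidneys. In loop of Henle the control libraries Ctrl, N1, N2, AN1 and AN2 stood at 3.54, 0, 31.0, 0 and 137 CPM, the UIR libraries at 2383, 1216 and 1563 CPM and the UUO libraries at 3694, 2718 and 2340 CPM. Every injured library lay above every control library, and 58 UMIs of AN2 came from 1 of its 57 cells and 12 of N2 from 1 of its 62 cells. The gene was higher by 5.33 ± 0.50 after UIR (adjusted p = 1.46e-08) and by 6.08 ± 0.50 after UUO (adjusted p = 9.07e-10). Without AN2 these values became 7.34 and 8.10. The share of loop of Henle cells with a S100a6 UMI was 1.15% in control, 81.7% in UIR and 92.2% in UUO at median depths of 5614, 11910 and 13630 UMIs. With every cell thinned to 1000 UMIs (246, 1297 and 780 cells), the shares were 0, 51.4 and 74.5%. In B cells, a type with little S100a6 in these same data, the thinned shares were 3.45, 8.33 and 5.51% (untouched 10.3, 10.5 and 17.7%, at medians of 2852, 3682 and 4334 UMIs). Their low shares are a description and not an independent background.

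Distal tubule went the same way. Its control libraries held 0, 0, 0, 3.06 and 0 CPM of S100a6, which was 1 UMI in all, against 314, 90.9 and 540 CPM in UIR and 938, 1375 and 1266 CPM in UUO. The ratio to control was 730 (95% counting interval 131 to 28850) for UIR and 2584 (464 to 102100) for UUO, with adjusted p = 9.53e-10 and 1.61e-12. Without AN1, the library of that UMI, the control had none and the adjusted p was 6.79e-08 for UIR and 3.83e-10 for UUO. Thinned shares of distal tubule cells with the gene were 0, 11.6 and 42.7% (211, 415 and 234 cells). Principal cells of the collecting duct held 8.88, 2.27, 1.44, 13.5 and 2.96 CPM in control, 798, 335 and 182 CPM in UIR and 2821, 1919 and 821 CPM in UUO. There the gene rose by 5.91 ± 0.55 (adjusted p = 9.38e-07) and 7.94 ± 0.55 (adjusted p = 4.92e-09), and by 2.60 and 4.02 when each cell was named by its own markers in place of its cluster. Without the library UIR the first value was 5.14 (adjusted p = 1.48e-06). Set against the empty droplets of the same libraries, the UIR levels were 24.9 to 96.4% in distal tubule and 32.5 to 133% in principal cells, and the UUO levels of distal tubule 98.2 to 216%.

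PT showed the same direction at far lower levels. S100a6 stood there at 1.18, 1.26, 1.31, 1.09 and 0.416 CPM in control, 24.9, 21.9 and 27.7 CPM in UIR and 228, 56.5 and 28.6 CPM in UUO (9, 24 and 10 UMIs in 40, 42 and 87 cells), and it was higher by 4.57 ± 0.26 (adjusted p = 3.01e-11) and 5.53 ± 0.44 (adjusted p = 2.45e-08). These PT levels were 4.15 to 5.99% of the level in the empty droplets of the same UIR libraries and 4.87 to 23.8% in UUO. With a share of the empty-droplet profile subtracted from each pool, the UIR difference was gone (log2 of 0, adjusted p = 1), while that of UUO remained past the threshold (adjusted p = 0.00039). Loop of Henle, at 279 to 399% of the empty level in the injured libraries, and principal cells after UUO (140 to 296%) stood above the free RNA. Intercalated cells had 4.24, 6.27, 126, 0 and 0 CPM in control, 54.9, 28.1 and 139 in UIR and 119, 119 and 164 in UUO, and neither difference passed (0.95 ± 0.66, adjusted p = 0.427, and 1.69 ± 0.64, adjusted p = 0.0622). In N2, 65 of the 73 UMIs came from 1 of 38 cells, and without N2 the values were 4.67 (adjusted p = 0.000418) and 5.42 (adjusted p = 1.03e-05).

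**Figure D2:**
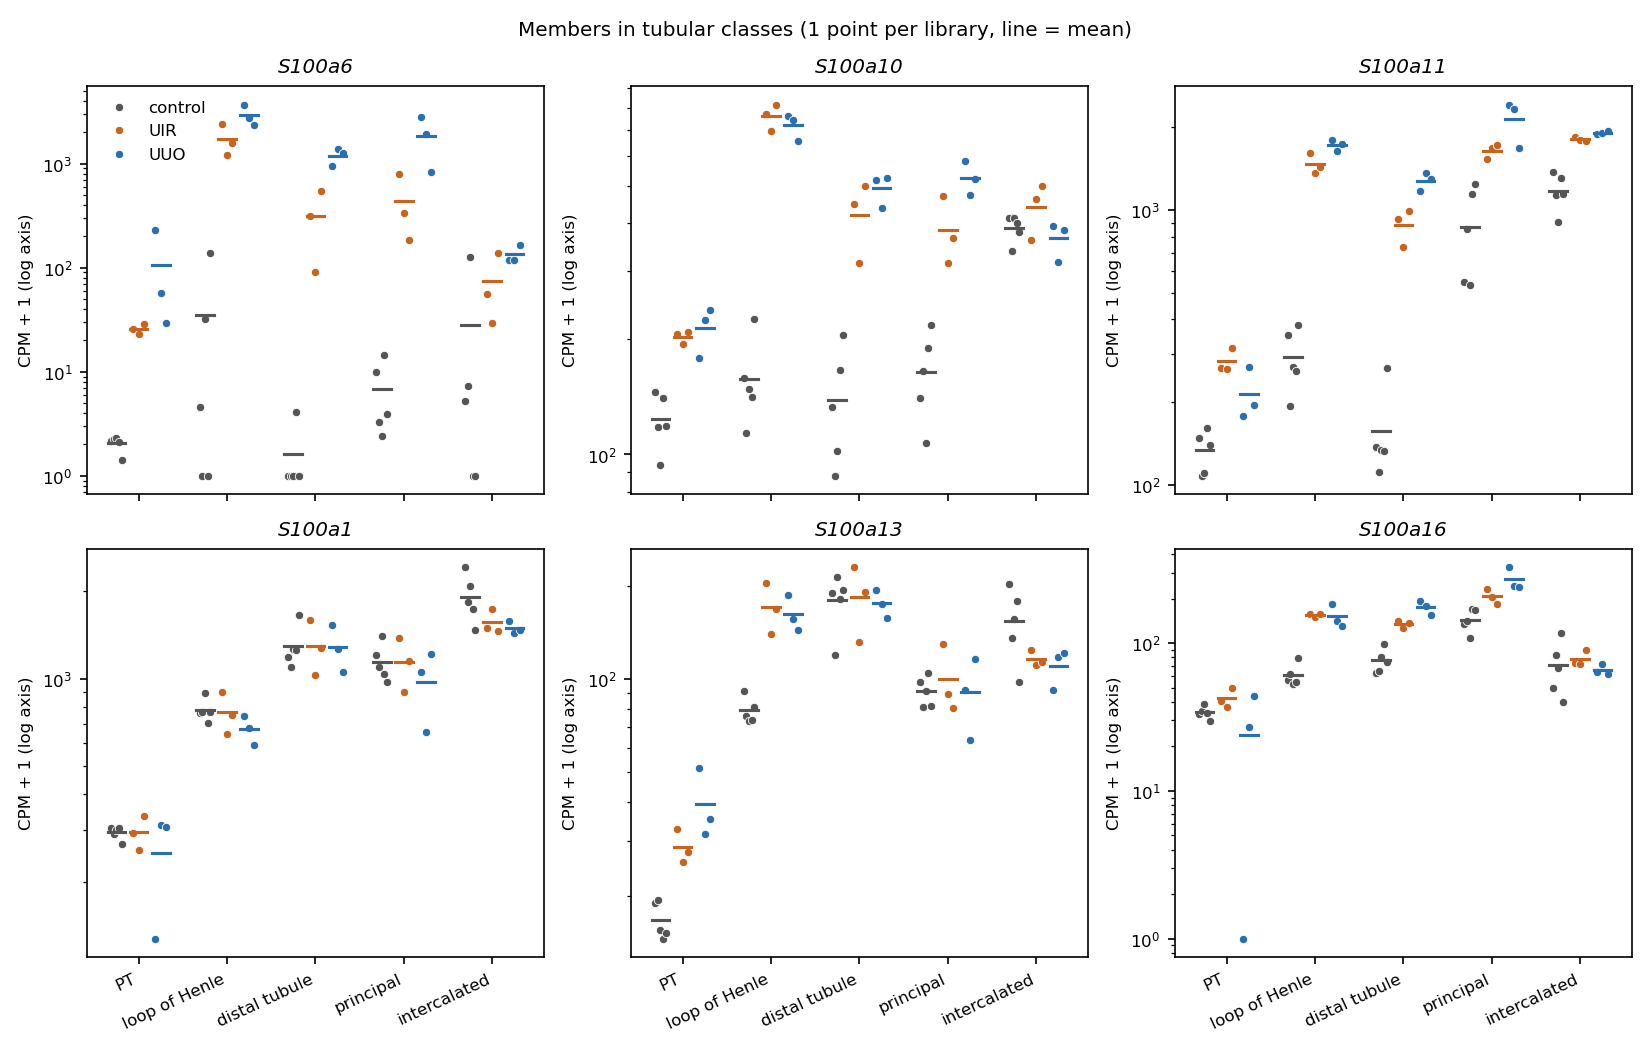
Levels of 6 S100 genes in the 5 tubular classes (horizontal axes) as CPM + 1 on log vertical axes that differ between genes, with 1 point per library and a line at the mean of control (n = 5), UIR (n = 3) and UUO (n = 3). In loop of Henle every injured library lay above the 5 control libraries for S100a6, S100a10, S100a11, S100a13 and S100a16, and the S100a1 points overlapped.

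The annexin partners S100a10 and S100a11 rose in principal cells, distal tubule and loop of Henle, from higher control levels than S100a6. In loop of Henle S100a10 was at 158, 113, 147, 140 and 225 CPM in control, at 771, 693 and 814 CPM in UIR and at 759, 743 and 655 CPM in UUO. S100a11 was there at 350, 192, 266, 258 and 381 CPM, then 1614, 1358 and 1429 CPM, then 1799, 1642 and 1739 CPM. No injured library overlapped a control library for either gene. The differences were 2.03 ± 0.16 and 1.95 ± 0.16 for S100a10 (adjusted p = 1.05e-09 and 1.01e-09) and 2.09 ± 0.16 and 2.32 ± 0.16 for S100a11 (adjusted p = 8.32e-10 and 7.96e-11). In distal tubule S100a10 rose from 138 ± 47.5 CPM to 420 ± 94.9 and 493 ± 48.9 CPM (1.24 ± 0.19 and 1.42 ± 0.19), and S100a11 from 155 ± 62.7 to 884 ± 134 and 1276 ± 97.0 CPM (2.14 ± 0.19 and 2.61 ± 0.19). Principal cells gave 1.05 ± 0.18 and 1.46 ± 0.18 for S100a10, from 163 ± 42.7 CPM, and 0.75 ± 0.23 and 1.09 ± 0.23 for S100a11, from 864 ± 330 CPM. The S100a11 call in principal cells after UIR (adjusted p = 0.0306) was lost without any of Ctrl, N1, N2, UIR, UIR1 or UIR2, with adjusted p up to 0.0901 and differences of 0.62 to 0.90. No alternative ended the calls of the 2 genes in loop of Henle or distal tubule.

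PT had S100a10 at 145, 117, 92.8, 139 and 118 CPM in control, 205, 193 and 207 CPM in UIR and 177, 224 and 237 CPM in UUO. Again the injured libraries lay above the control libraries, by 0.76 ± 0.14 (adjusted p = 0.000475) and 0.70 ± 0.19 (adjusted p = 0.0354). The latter call was lost without N1, N2, AN2, UUO1 or UUO2, with adjusted p up to 0.258. S100a11 rose in PT after UIR, from 132 ± 23.4 to 281 ± 29.6 CPM (1.12 ± 0.15, adjusted p = 1.39e-05), and stood at 213 ± 48.5 CPM after UUO (0.59, adjusted p = 0.111). In intercalated cells, where S100a11 was already at 1173 ± 180 CPM, it gave 0.43 after UIR (adjusted p = 0.0574) and rose by 0.42 ± 0.15 after UUO (adjusted p = 0.0425), a call lost without N1, N2, AN2, UIR, UIR2, UUO, UUO1 or UUO2 (adjusted p up to 0.108). S100a10 stood there at 388, 440 and 365 CPM in control, UIR and UUO and did not pass.

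S100a13 and S100a16 moved less. S100a13 was at 90.2, 75.1, 72.4, 72.9 and 80.5 CPM in control loop of Henle, 203, 139 and 167 CPM in UIR and 186, 155 and 143 CPM in UUO, with no overlap (0.88 ± 0.17, adjusted p = 0.000303, and 0.81 ± 0.17, adjusted p = 0.000656). In PT it rose after UIR from 15.7 ± 2.27 to 27.7 ± 3.59 CPM (0.85 ± 0.14, adjusted p = 0.00014), a call lost with the free RNA subtracted (0.52, adjusted p = 0.0571). Intercalated cells went the other way, from 153 ± 40.2 CPM to 115 ± 6.98 after UIR (-0.59 ± 0.18, adjusted p = 0.0351) and 109 ± 15.8 after UUO (-0.75 ± 0.18, adjusted p = 0.00424). The first of these calls was lost without Ctrl, N2, AN1, UIR, UIR1, UIR2 or UUO1 (adjusted p up to 0.14). Distal tubule gave -0.44 ± 0.17 after UUO (adjusted p = 0.0438), at means of 179 and 175 CPM, and lost that call without Ctrl, N2, AN1, AN2, UIR2, UUO1 or UUO2 (adjusted p up to 0.162). S100a16 rose in loop of Henle from 59.8 ± 10.8 to 154 ± 4.02 and 151 ± 27.8 CPM (1.14 ± 0.17 and 1.12 ± 0.18), in distal tubule from 75.3 ± 14.7 to 134 ± 7.81 and 174 ± 18.8 CPM (0.53 ± 0.16, adjusted p = 0.0101, and 0.85 ± 0.16, adjusted p = 6.55e-05), and in principal cells after UUO from 143 ± 25.5 to 269 ± 49.1 CPM (0.68 ± 0.16, adjusted p = 0.00245). The distal tubule call after UIR was lost without Ctrl (0.43, adjusted p = 0.0535).

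S100a1 was the tubular member with no rise. It stood in intercalated cells at 2418, 1831, 2078, 1739 and 1466 CPM in control, 1491, 1734 and 1460 CPM in UIR and 1578, 1438 and 1464 CPM in UUO, so the groups overlapped at their edges. It was lower there after UUO (-0.64 ± 0.17, adjusted p = 0.00722) and gave -0.48 after UIR (adjusted p = 0.0689). In loop of Henle it was lower after UUO (-0.44 ± 0.15, adjusted p = 0.0222), a call lost without N2, UUO1 or UUO2 (adjusted p up to 0.137).

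S100a4 stayed close to 0 in tubules. Over all 5 control libraries loop of Henle held 0 of 1943980 UMIs, which allows up to 3, against 4.58 to 7.16 CPM in UIR (55, 34 and 61 UMIs) and 5.59 to 9.16 CPM in UUO (50, 38 and 16 UMIs). Taking 3 counts over the control group as the floor, it stood at 3.87 times the floor in UIR and 4.79 times in UUO, with edgeR adjusted p = 0.00388 and 0.0016. These levels were 4.97 to 10.7% of the level in empty droplets of the same libraries, and both calls were lost with the free RNA subtracted (adjusted p = 0.21 and 0.14) and when each cell was named by its own markers (0.62 and 0.31). PT had 0.591, 0.140, 0, 0.109 and 0.104 CPM in control, 2.91, 4.98 and 5.54 CPM in UIR and 25.3, 0 and 2.86 CPM in UUO, which was 1, 0 and 1 UMI. The UIR difference of 4.27 ± 0.53 (adjusted p = 3.81e-06; 5.31 without Ctrl) passed and the UUO difference of 3.24 ± 1.64 did not (adjusted p = 0.333). The UIR levels of PT were 4.36 to 6.39% of those in the empty droplets, and the part of free RNA in that call was not tested.

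The mitochondrial share of the pooled UMIs moved with these groups. It was 21.1% in control loop of Henle against 10.1% in UIR and 8.54% in UUO, 18.9% against 13.4 and 10.8% in distal tubule, 20.6% against 14.5 and 10.6% in principal cells, and 20.7% against 19.9 and 16.7% in PT. The test's own scaling took 0.22 and 0.23 off the plain CPM difference in loop of Henle and 0.32 and 0.37 in distal tubule. The part of the mitochondrial share in the results was not tested, but with cells limited to 15% mitochondrial UMIs only 28 pairs could be tested and 9 were called after UIR and 10 after UUO. The calls of S100a6, S100a10 and S100a11 in loop of Henle remained under that limit.

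Outside the tubules, macrophages showed 4 of 7 members higher after each injury, where 3.52% and 5.92% of all genes were higher. S100a10 rose from 26.1, 23.1, 21.9, 12.5 and 21.4 CPM in control to 75.7, 63.2 and 57.1 CPM in UIR and 63.5, 60.7 and 85.4 CPM in UUO, with no overlap (1.61 ± 0.24, adjusted p = 0.000181, and 1.66 ± 0.24, adjusted p = 4.23e-05). S100a6 was at 59.6, 34.6, 5.47, 29.1 and 88.8 CPM, then 143, 78.9 and 76.7 CPM, then 150, 108 and 158 CPM. The UUO libraries lay above all controls and the UIR libraries overlapped them (1.47 ± 0.31, adjusted p = 0.00245, for UUO and 1.02, adjusted p = 0.0593, for UIR). S100a10 in macrophages was 12.6 to 26.9% of the level in empty droplets, and its calls and that of S100a6 were lost when the free RNA was subtracted. S100a13 rose by 0.67 ± 0.16 after UUO (adjusted p = 0.00726). The other macrophage calls were S100a11 (0.57 ± 0.17 and 0.52 ± 0.17), S100a13 after UIR (0.56 ± 0.16) and S100a16 after UIR, at 8.10 to 12.5 CPM against 0, 0, 0, 4.16 and 3.06 CPM in control, a ratio of 5.99 (counting interval 1.62 to 50.1). As a share of the empty-droplet level the injured macrophages held 17.3 to 38.1% for S100a11 and, after UIR, 12.2 to 30.2% for S100a16 and 81.8 to 114% for S100a13. With the free RNA subtracted both S100a11 calls were lost (adjusted p = 0.485 and 0.081) and both S100a13 calls remained (0.0492 and 0.0203). The 2 S100a11 calls and those of S100a13 and S100a16 after UIR had adjusted p-values of 0.0396 to 0.0469 and were easily lost. The S100a11 calls were lost without N1, N2, AN1, UIR1 or UIR2 in either comparison, and that of UUO also without Ctrl, UIR, UUO1 or UUO2 (adjusted p up to 0.164). S100a13 lost its UIR call without N2, AN1, AN2, UIR, UIR1, UIR2 or UUO1 (up to 0.104), and S100a16 without Ctrl, N1, N2, AN2, UIR, UUO or UUO1 (up to 0.123).

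T/NK cells, with 4 control libraries of 20 cells or more, had 0 of 6 members called after UIR (edgeR; 2 at an unadjusted p under 0.05, and 0 by DESeq2; 0.236% of all genes higher) and 1 of 6 after UUO (0.863%). The member called was S100a4, at 248, 385, 534 and 243 CPM in control against 593, 603 and 582 CPM in UUO, all above the controls (0.76 ± 0.20, adjusted p = 0.0408). This call was lost without N1, N2, AN2, UUO1 or UUO2 (adjusted p up to 0.24) and with median-ratio size factors (0.65, adjusted p = 0.11), which moved the median of all genes in T/NK cells from 0.146 to 0.0419. S100a6 in T/NK cells stood at 1109 ± 98.5, 1137 ± 221 and 1412 ± 227 CPM. In Fibro 3 cells, the pericyte-like fibroblasts, 0 of 7 members were called after UUO (edgeR; 1 at an unadjusted p under 0.05, 0 by DESeq2; 0.468% of all genes higher), with S100a6 at 202 ± 43.6 CPM in control and 367 ± 59.8 CPM in UUO (0.79, adjusted p = 0.103). Fibro 1 and Fibro 2 cells had too few control cells for a test.

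**Figure D3:**
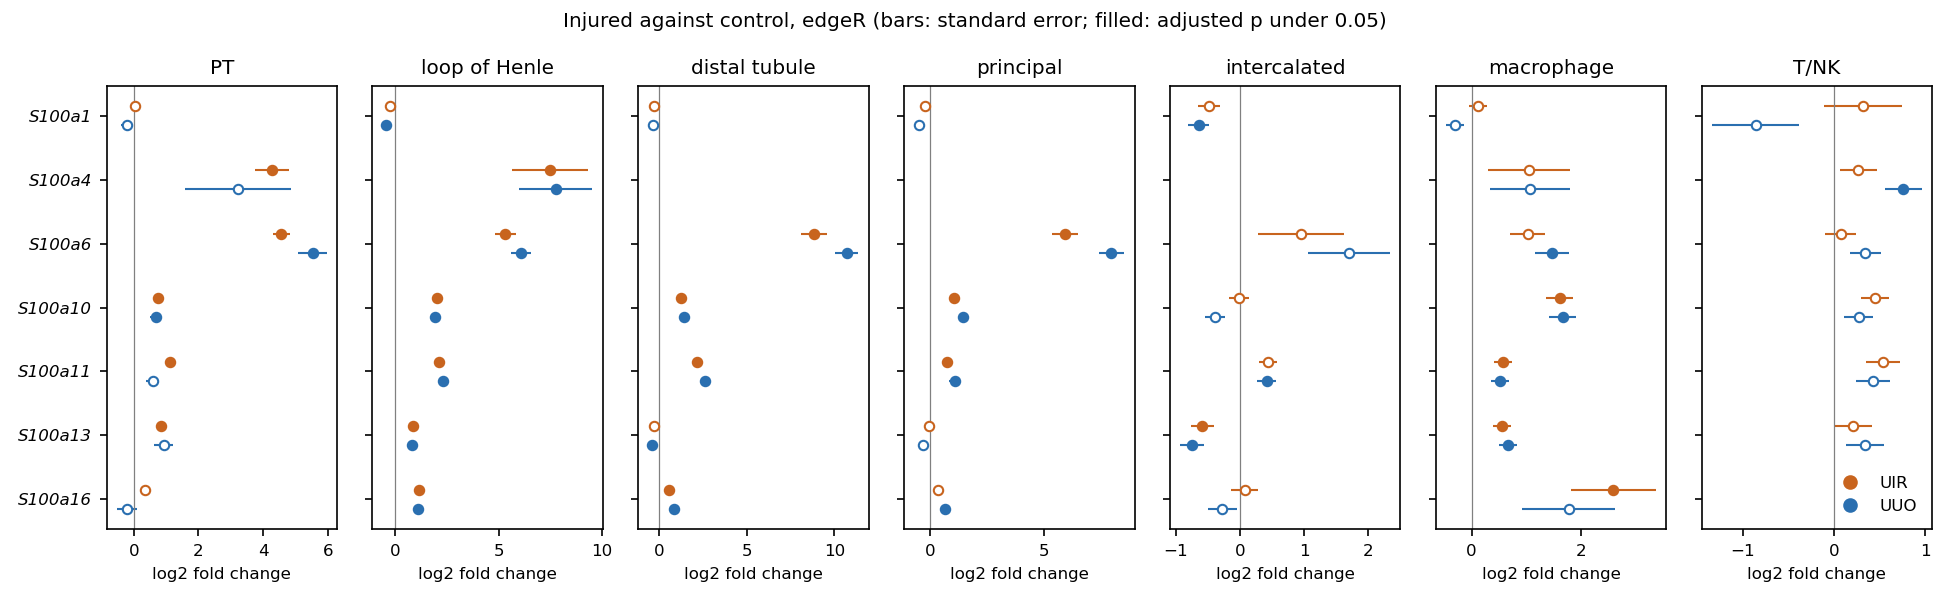
Log2 fold change against control (horizontal axes, scales differ) of 7 S100 genes in 7 classes after UIR and UUO; bars are standard errors and filled points have an adjusted p under 0.05 (edgeR). The S100a4 points in loop of Henle and the S100a6 points in distal tubule are fitted against 0 and 1 control UMIs, so their place depends on the model's prior count, and the S100a1 points lay near or left of 0 in the tubular classes.

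Whether an injury effect in a distal class differed from that in PT was tested as an interaction of class and group. The PT class did not hold the unnamed cluster led by Ubd, C3 and Havcr1 that is described below. The distal classes did hold clusters found mostly in injured kidneys, so the contrast is between classes of different make-up. After UIR 5 of 27 effects were larger than in PT and 5 smaller, where 6.15% of all genes were larger and 8.6% smaller. After UUO 9 of 27 were larger and 5 smaller, against 5.5% and 4.51%. S100a11 had a larger effect in loop of Henle (1.01 and 1.99) and distal tubule (1.07 and 2.29), and S100a10 in loop of Henle (1.29 and 1.47). With cells limited to 15% mitochondrial UMIs 0 of 26 interactions were called, and the loop of Henle values were 0.46 (adjusted p = 0.729) and 1.52 (adjusted p = 0.129) for S100a11 and 0.92 (adjusted p = 0.341) and 0.82 (adjusted p = 0.507) for S100a10. With at least 50 cells per pool 19 could be tested and 5 were called. The UIR value of S100a11 in loop of Henle was lost without the library UIR (0.89, adjusted p = 0.0604). S100a13 had a smaller effect in distal tubule, at -1.23 after UIR and -1.31 after UUO, and in intercalated cells, at -1.41 and -1.50. The UUO values of S100a13 were lost without UUO1 or UUO2, with adjusted p up to 0.139 in distal tubule and 0.108 in intercalated cells. S100a6 had a larger effect in distal tubule (3.96 and 5.43), which free RNA subtraction ended for both injuries, and a smaller one in intercalated cells that rested on N2 (-0.30, adjusted p = 0.907, and -0.18, adjusted p = 0.954, without it). In loop of Henle the S100a6 effect was not called as different from PT. With free RNA subtracted it was smaller there than in PT after UUO (-4.43, edgeR adjusted p = 0.0026).

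The classes of control and injured kidneys were largely made of different clusters. Control loop of Henle was 95.8% one cluster led by Egf and Wfdc15b, which gave 5.91% of the class in UIR (78 cells) and 0.745% in UUO. The injured loop of Henle came from 3 others. The S100 genes had been left out of the clustering, and the values by cluster are given as a description with counting intervals only. In the Egf cluster S100a6 was at 0 CPM in control (at most 2.15) and at 15.7 CPM in UIR (6.77 to 30.9). In the injured clusters it was at 1227 and 1511, 815 and 1174, and, in the cluster led by Psca, Mmp7 and Cxcl5, 3584 and 4265 CPM in UIR and UUO. S100a10 in the Egf cluster was at 144 CPM in control and 251 CPM in UIR, and S100a11 at 238 and 455 CPM. Control distal tubule was 98.1% a cluster with S100a6 at 0.474 CPM in control (0.012 to 2.64) and 3.44 CPM in UIR (0.0871 to 19.2), while the cluster that held 94.2% of the class in UIR and 96.2% in UUO was at 353 and 1222 CPM. Principal cells held a cluster with 9.50 CPM in control and 9.23 CPM in UIR, which was 41.0% of the class in UIR, and a cluster led by Sprr2f, Spink8 and Plet1 at 1023 CPM in UIR and 1444 CPM in UUO, which was 73.7% of the class in UUO. Intercalated cells came 65.4% from one cluster in control and 78.4% from another in UUO. An unnamed tubular cluster led by Ubd, C3 and Havcr1, which the paper names as a marker of PT injury, held 5 control, 347 UIR and 57 UUO cells, with S100a6 at 570 and 724 CPM, S100a10 at 1170 and 1371 CPM and S100a11 at 1286 and 1467 CPM in UIR and UUO. These cells were not part of PT or of any other class tested here.

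**Figure D4:**
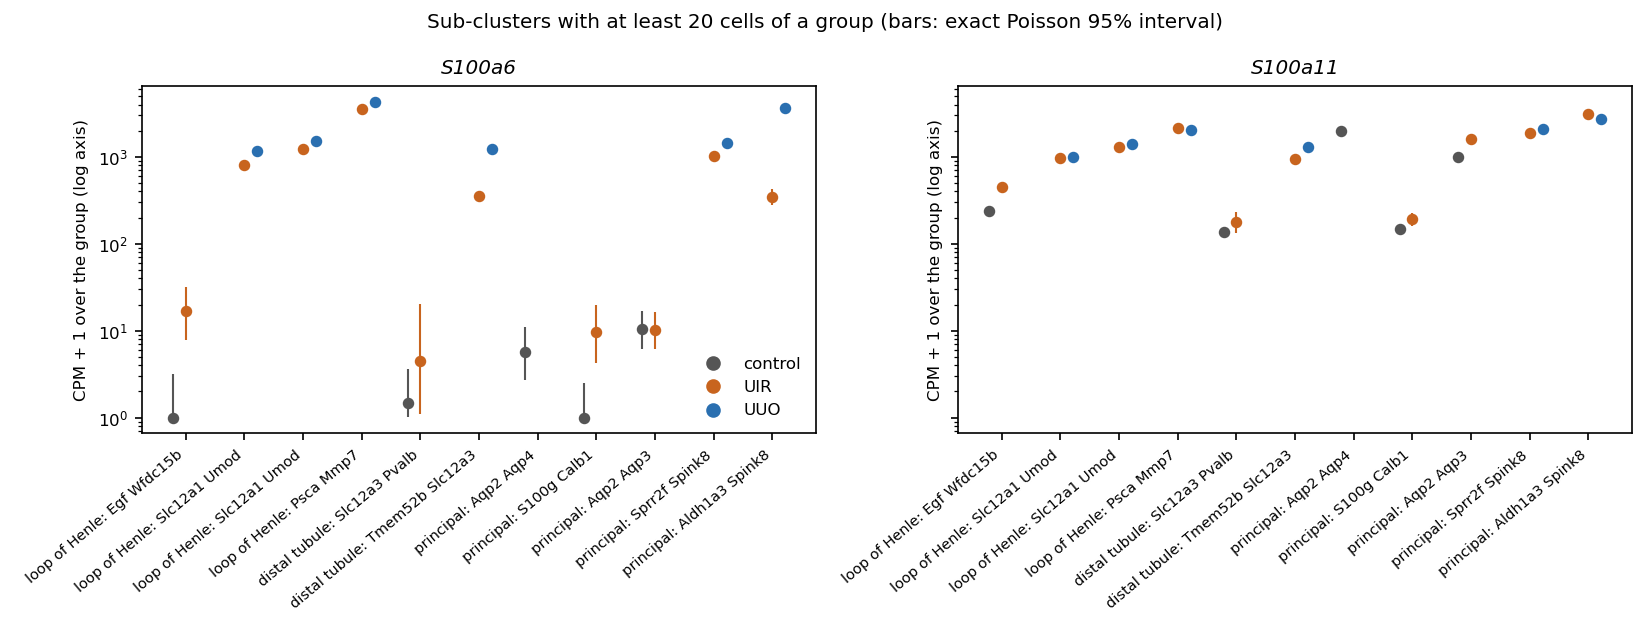
Level of S100a6 (left) and S100a11 (right) in clusters of principal cells, distal tubule and loop of Henle (horizontal axis, named by leading genes), as CPM + 1 over all cells of a group on a log axis with exact Poisson 95% intervals. The Egf cluster of loop of Henle stood at 15.7 CPM of S100a6 in UIR, and the other 3 loop of Henle clusters at 815 CPM or more.

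UUO and UIR were compared directly in 12 classes, with 7 of 76 pairs higher in UUO and 2 lower, where 0.902% of all genes were higher and 1.15% lower. Smooth-muscle-like Fibro 2 cells held 4 of these calls. S100a6 was there at 111, 167 and 151 CPM in the 3 UIR libraries against 672 and 868 CPM in UUO and UUO2 (2.38 ± 0.21, adjusted p = 2.62e-06). S100a4 was at 11.8, 14.2 and 5.13 CPM against 47.9 and 194 CPM (3.49 ± 0.54, adjusted p = 0.0017), S100a11 at 305, 360 and 323 CPM against 592 and 900 CPM (1.14 ± 0.21, adjusted p = 0.00721), and S100a10 at 9.44, 24.9 and 17.4 CPM against 65.5 and 38.9 CPM (1.58 ± 0.37, adjusted p = 0.043). The UUO libraries lay above the UIR libraries for all 4 genes. Without UIR2 the calls of S100a4 (adjusted p = 0.0884), S100a10 and S100a11 were lost, those of S100a10 also without UIR or UUO (up to 0.584) and of S100a11 without UUO2 (up to 0.131), and S100a4 moved to 4.34 without UUO and 2.29 without UUO2. With each cell named by its own markers all 4 were lost.

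S100a6 was also higher in UUO than in UIR in distal tubule (1.88 ± 0.31, adjusted p = 0.000397), principal cells (2.03 ± 0.45, adjusted p = 0.0104) and cDC1 cells (1.21 ± 0.21, adjusted p = 0.0111, from 137 ± 18.6 to 331 ± 121 CPM, which was 20.9 to 38.2% and 29.3 to 68.4% of the empty-droplet level). The principal cell call was lost without UIR1, UIR2 or UUO (adjusted p up to 0.0597; 2.80 without UIR), and that of cDC1 without UIR1, UIR2 or UUO1 (up to 0.0855). With each cell named by its own markers the cDC1 value was -0.15 (adjusted p = 0.983) and that of principal cells 1.41 (adjusted p = 0.129), and with 15% of doublet scores removed the cDC1 value was 0.73 (adjusted p = 0.941). DESeq2 called neither distal tubule (adjusted p = 0.0991) nor principal cells (0.129). In loop of Henle the gene gave 0.76 (adjusted p = 0.578) and in PT 0.96 (adjusted p = 0.371). The members lower in UUO were S100a16 in Fibro 1, at 399, 334 and 329 CPM in UIR against 183, 199 and 80.1 CPM in UUO (-1.11 ± 0.24, adjusted p = 0.0426; up to 0.197 without UIR, UIR1, UIR2, UUO or UUO2), and S100a1 in T/NK cells, at 33.0, 45.8 and 29.3 CPM against 19.2, 15.9 and 13.9 CPM (-1.18 ± 0.23, adjusted p = 0.00152; 0.0638 without UIR1). The S100a1 levels of T/NK cells were 9.30 to 34.3% of those in the empty droplets in UIR and 4.69 to 6.27% in UUO, and the call was lost with the free RNA subtracted (adjusted p = 0.9999). Groups did not overlap for either gene.

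Every member was read in the empty droplets. In empty droplets S100a6 stood at 435, 300, 417, 184 and 86.8 CPM in control, 601, 365 and 561 CPM in UIR and 955, 686 and 586 CPM in UUO. S100a11 means were 256, 447 and 578 CPM and those of S100a10 212, 440 and 350 CPM. After the fit's own scaling of the libraries the differences from control were -0.05 and 0.45 for S100a11 and 0.25 and 0.04 for S100a10, so the order of the plain means was not that of the fit for S100a11 after UIR. The UUO libraries lay above all controls for S100a6, but no member was called in any comparison of the empty droplets (edgeR; 0, 3 and 0 at an unadjusted p under 0.05 for UIR against control, UUO against control and UUO against UIR; DESeq2 called 0, 2 and 0), where 0%, 2.53% and 0% of all genes were called. The nearest was S100a4 after UUO, from a mean of 36.5 to 118 CPM (1.39 ± 0.41, adjusted p = 0.0764). This depended on which barcodes were taken as empty: with those of ranks 45000 to 90000, 7, 9 and 6 members were called, and S100a8 and S100a9 turned to 4.56 and 3.76 for UUO against control.

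S100a8 and S100a9, the calprotectin genes, differed widely between libraries of the same group in the empty droplets. S100a8 was at 23.9, 415, 594, 0.679 and 0.461 CPM in Ctrl, N1, N2, AN1 and AN2, at 30.8, 442 and 755 CPM in UIR, UIR1 and UIR2, and at 51.2, 172 and 248 CPM in UUO, UUO1 and UUO2. S100a9 was at 13.3, 780, 1025, 0.679 and 0.921 CPM, then 20.5, 760 and 1211 CPM, then 20.9, 237 and 310 CPM. High and low libraries occurred in each group, and N1 and N2, which gave 0 and 1 kept neutrophils, were among the highest. The unnumbered libraries Ctrl, UIR and UUO stood below N1, N2 and the numbered libraries of either injury for both genes, and AN1 and AN2 were lowest. What this split by library name reflects was not tested. The 4 neutrophil markers Csf3r, Retnlg, Cxcr2 and Mmp9 summed to 0 to 49.1 CPM in the empty droplets, with 14.1 in N1, 35.1 in N2 and 49.1 in UUO2. The ratio of S100a8 to S100a9 UMIs was 0.532 (0.464 to 0.610) in N1, 0.579 in N2, 0.582 in UIR1, 0.623 in UIR2, 0.725 in UUO1 and 0.799 in UUO2. It was 2.45 (1.60 to 3.85) in UUO, and in Ctrl and UIR, with few UMIs, 1.8 (0.542 to 6.84) and 1.5 (0.564 to 4.23), while the neutrophils of the UUO libraries gave 1.28, 1.03 and 0.992.

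In cells other than neutrophils both genes were at or near 0 in control and low in injury. S100a8 was at 0 in 37 of 38 control pools of a class and library, 23 of 37 UIR pools and 9 of 43 UUO pools, and S100a9 in 38 of 38, 23 of 37 and 10 of 43. The highest pools reached 69.1 and 53.3 CPM (cDC2 of UIR1) and 29.6 and 30.6 CPM (macrophages of UUO2). Over all kept cells other than neutrophils S100a8 was at 0 to 0.0548 CPM in control, 0.141, 3.39 and 0.229 CPM in UIR and 4.47, 8.32 and 11.5 CPM in UUO. The cells of N1 and N2 held 0 CPM, beside the 415 and 594 CPM of their empty droplets. Of the neutrophils, 225 of 291 in UUO and 18 of 26 in UIR had UMIs of both genes. Neither gene passed the filter for a test in any class compared with control. With 3 counts over the control group as the floor, S100a8 stood at 14.4 times the floor in UUO principal cells and 5.80 times in UUO macrophages. S100a9 stood at 9.26 and 5.83 times its floor. These ratios leave out the counting error of the injured cells and are not lower bounds. They rested on 1 library each. UUO1 held 34 of the 42 S100a8 UMIs and 21 of the 27 S100a9 UMIs of the principal cells, and without it the ratios were 5.49 and 4.12. UUO2 held 168 of 203 and 174 of 204 in the macrophages, and without it they were 1.61 and 1.38. In UUO PT the S100a9 ratio was larger, at 74.3, from 4 UMIs (32.6 to 117 with 1 library left out). Over all UUO tubular cells S100a9 stood at 45.7 times the floor, and the S100a8 ratio to 1 control UMI was 185 (counting interval 32.5 to 7392). The UUO levels were 1.69 to 7.64% (S100a8) and 0.675 to 11.8% (S100a9) of the empty-droplet level in principal cells and 1.70 to 11.95% and 1.62 to 9.88% in macrophages. Cells other than neutrophils held none of either gene in N1 and N2, despite the levels in their empty droplets. These percentages therefore do not measure the part of free RNA, which was not tested.

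**Figure D5:**
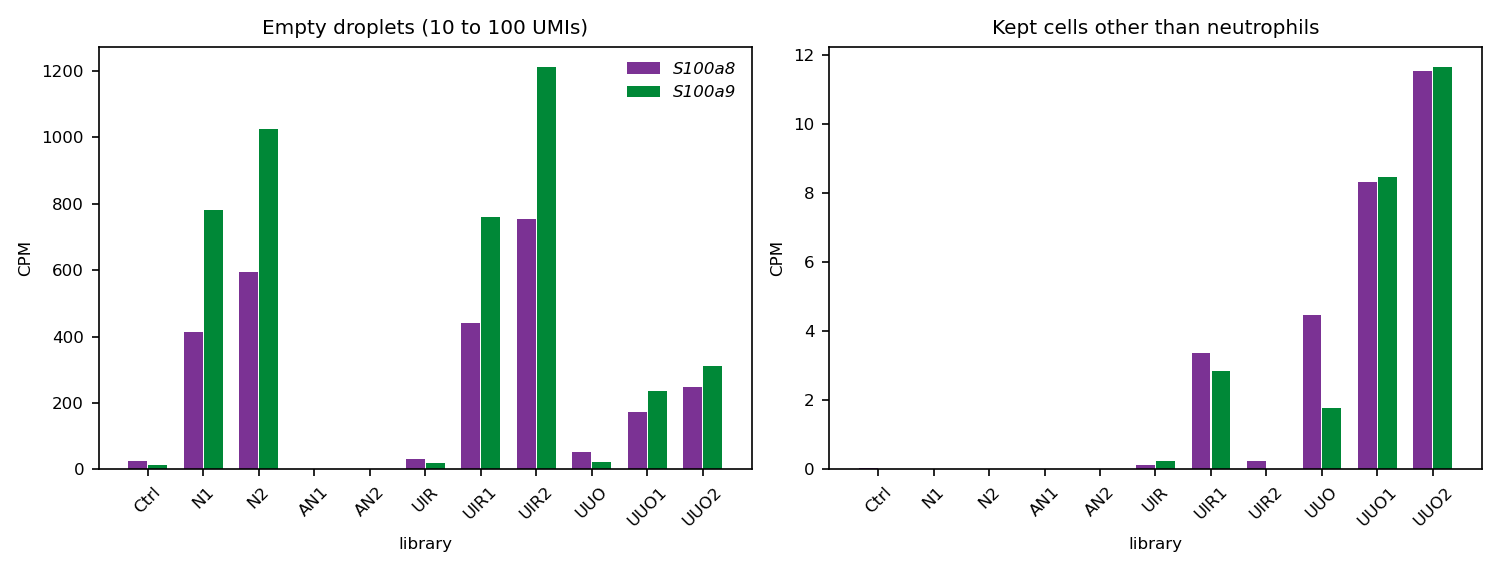
S100a8 and S100a9 levels (CPM) by library, in empty droplets (left) and in all kept cells other than neutrophils (right). The empty droplets of N1, N2, UIR1 and UIR2 stood highest for both genes. The cells stood highest in the 3 UUO libraries for S100a8 and in UUO1 and UUO2 for S100a9, where UIR1 (2.86 CPM) lay above UUO (1.79 CPM).

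The wider pathway was read from a list of 26 partners: other S100 genes, annexins, binding partners and receptors. Of 118 tested pairs of partner and class, 45 were higher and 8 lower after UIR, and of 132, 50 were higher and 17 lower after UUO, beside the 9.1 and 7.96% (UIR) and 10.7 and 9.84% (UUO) of all genes. Annexins accounted for 27 of 55 pairs higher and 0 lower after UIR, and 28 of 61 higher and 1 lower after UUO. Anxa2, whose protein binds S100A10, rose in 5 of 7 classes after UIR (by 1.48 to 5.21) and 6 of 8 after UUO (by 0.90 to 5.79). In loop of Henle it went from 76.7 ± 23.3 to 791 ± 55.9 and 866 ± 81.3 CPM (3.17 ± 0.18 and 3.30 ± 0.18). Anxa1, whose protein binds S100A11, rose in 4 of 7 classes after UIR and was called in 5 of 8 after UUO, with T/NK cells lower (-1.38 ± 0.33, adjusted p = 0.0156); its loop of Henle means were 4.39, 245 and 371 CPM. Anxa3 rose in 5 of 6 and 6 of 6 classes. Among the binding partners 9 of 32 pairs were higher and 2 lower after UIR and 14 of 36 higher and 3 lower after UUO, with Myh9, the non-muscle myosin bound by S100A4, higher in 5 of 8 classes after UUO (by 0.71 to 1.06). Others went the other way: Fgf1 was lower in loop of Henle and distal tubule after both injuries (log2 of -2.76 to -1.03) and higher in PT after UIR (0.37), and Cacybp was called in 0 of 7 classes after UIR and was lower in PT after UUO (-1.25 ± 0.21), both named after their values were seen.

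Receptors gave 4 of 20 higher and 5 lower after UIR and 5 of 23 higher and 7 lower after UUO, few pairs to set beside those shares. Tlr4, a calprotectin receptor, rose in principal cells from 1.05 to 6.01 and 13.9 CPM (2.15 ± 0.60, adjusted p = 0.0182, and 3.38 ± 0.52, adjusted p = 4.01e-05). Bsg (basigin, a receptor for S100A9) was lower in distal tubule after both injuries (log2 of -0.41 and -0.45, adjusted p = 0.024 and 0.0109) and in 3 of 8 classes in all after UUO. The remaining receptor calls were of Cd36 and Alcam, named after their values were seen. Cd36 was lower in 3 of 4 classes after each injury, with loop of Henle at 34.5, 1.92 and 1.42 CPM, and Alcam was higher in 3 classes after UIR and 4 after UUO and lower in macrophages (86.7, 45.9 and 39.1 CPM). Ager was tested only in Fibro 2 between UUO and UIR and did not pass. The other S100 genes gave 5 of 11 pairs higher and 1 lower after UIR and 3 of 12 higher and 6 lower after UUO. The higher calls after UUO were all of S100a14, also named after its values were seen, which was called higher in 3 of 3 classes after each injury and stood in principal cells at 12.9 ± 4.90, 51.6 ± 16.8 and 119 ± 14.9 CPM. S100g, the calbindin that binds calcium during its transport through the distal nephron, differed between the injuries. After UIR it rose in loop of Henle, from 113 to 406 CPM (1.55 ± 0.28), and in distal tubule (1.32), and was lower in principal cells (-1.82), where it stood at 16320 ± 5101 CPM in control (9426 to 22760), at 7289, 4634 and 3700 CPM in UIR and at 182, 203 and 2207 CPM in UUO. The groups did not overlap there. A cluster led by S100g made up 41.0% of the principal cells in control, 10.2% in UIR and 1.1% in UUO. The principal cell sums cannot tell a change in that share from a change in level. After UUO S100g was lower in 6 of 8 classes (log2 of -4.51 to -1.05). Its level in macrophages, a class outside the nephron, was 170, 138 and 9.70 CPM, and the part of free RNA in these calls was not tested. UUO against UIR gave 15 of 195 partner pairs higher and 9 lower (0.902% and 1.15% of all genes), and S100g was lower in 7 of 12 classes.

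Across 48 means of class and group, and among 8830 genes of at least 50 CPM in 1 of them, the genes of most similar pattern were named for each member by Pearson correlation of log2(CPM + 10). The means share libraries and controls, so the values are a description. S100a8 was closest to S100a9 (r = 0.998), Cxcr2 (0.986) and Siglecf (0.981), and S100a9 to S100a8, Cxcr2 (0.988) and Retnlg (0.986). Only UUO had neutrophil pools, so a gene confined to neutrophils is high in 1 of the 48 means and gives an r near 1 by construction. Cxcr2 and Retnlg were also among the markers that named the neutrophils. S100a1 was closest to Sox6 (0.928), Tfcp2l1 (0.923) and Osbpl1a (0.917), S100a16 to Wwtr1 (0.937), Npdc1 (0.930) and Mpzl1 (0.905), and S100a6 to Tagln2 (0.825), Capg (0.805) and Slc25a24 (0.764). S100a4 had Stk10 (0.837), Mbnl1 (0.811) and Prex1 (0.810), S100a11 had Lrp10 (0.798), Atxn10 (0.798) and Plp2 (0.789), S100a10 had Bzw1 (0.800), Vps36 (0.741) and Sars (0.738), and S100a13 had Elf2 (0.779), Cr1l (0.770) and Vgll4 (0.764). Except for S100a8 and S100a9, the nearest gene of a member was no other S100 gene.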

How the data were processed

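The 10x matrices of all barcodes were deposited as raw UMI counts per gene, made by the authors with Cell Ranger 3.1.0 on mm10 per the submitters' processing notes. The paper's methods name a later version of Cell Ranger. The authors' later corrections for ambient RNA and doublets were not in these counts. Strand and intron settings were not given in the sources used here.

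Per library, cells were called from a UMI cutoff (1/10 of the 99th percentile of 3000 expected barcodes) and, below it, from at least 500 UMIs and a test against barcodes of ranks 45000 to 90000 (10000 simulations, false discovery rate 0.01). Barcodes over 30% mitochondrial or 5% hemoglobin UMIs or under 200 genes were removed, as were the 7.5% highest simulated-doublet scores per library. Cells were clustered in Python 3.11.15 (leidenalg 0.10.2, 2000 variable genes, 40 components, 20 neighbours, resolution 1) with every S100 gene left out, and named from marker lists. The score limits of the naming were set after the marker tables were seen.

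Counts summed per library and class (at least 20 cells) were tested with edgeR 4.0.16 (quasi-likelihood, filterByExpr, TMM, the 3 groups in one fit) in R 4.3.3, with DESeq2 1.42.0 as an alternative. Pool and interaction fits had the library as a block. Intervals and floors (3 counts) cover counting error only, and ratios to a floor leave out that of the injured group. The test was checked on simulated data: for UIR against control in loop of Henle (11320 genes), 54 of 100 genes with a log2 fold of 1 and 100 of 100 with 2 were recovered, with 8 false calls. With a log2 fold of 1, 43 of 100 were recovered in macrophages and 65 of 100 in PT. The simulation had a fixed dispersion of 0.05 and changed only genes above a set level. It does not cover members near 0 or with a wider spread. Replicate numbers were not taken as pairs of UIR and UUO libraries, although the unnumbered libraries UIR and UUO correlated in most classes (0.469 in loop of Henle).

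The members and gene lists were chosen with earlier results of these data known. The text names the 9 members and, of 26 listed partners, Anxa1, Anxa2, S100g, Ager, Tlr4, Bsg and up to 3 more per contrast with the most classes called, plus the 3 genes of most similar pattern per member; Cd36, Alcam, S100a14, Fgf1, Cacybp and the leading genes of clusters were chosen after their values were seen.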

Additional observations from a re-analysis of the deposited data

Results flagged for a closer look

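In 10 of 56 groups of control libraries, 1 library stood apart from the others by Dixon's criterion, which chance alone gives in about 1 in 20 groups. That rate does not hold for 4 of the 10, where the other control libraries were all at 0 and a single UMI meets the criterion by construction. Most rested on few molecules. S100a6 reached 137 CPM (58 UMIs) in loop of Henle of AN2, where the other controls had 0 to 31.0 CPM, and 126 CPM (73 UMIs) in intercalated cells of N2, where the others had 0 to 6.27 CPM. In distal tubule of AN1 it was at 3.06 CPM (1 UMI), and in PT of AN2 at 0.416 CPM (4 UMIs) below the 1.09 to 1.31 CPM of the others. S100a4 was at 0.591 CPM (7 UMIs) in PT and 0.592 CPM (1 UMI) in principal cells of Ctrl. S100a16 was at 8.47 CPM (1 UMI) in T/NK cells of AN1 and S100a8 at 0.0844 CPM (1 UMI) in PT of Ctrl. S100a11 stood at 266 CPM (149 UMIs) in distal tubule of AN2, where the other controls had 110 to 136 CPM. S100a1 stood at 340 CPM (128 UMIs) in the empty droplets of Ctrl, where the others had 163 to 203 CPM.

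In 24 of 54 tests the injury effect in a distal class differed from that in PT (edgeR interaction term, log2 difference of effects). After UIR the differences in loop of Henle were 1.29 for S100a10, 1.01 for S100a11 and 0.80 for S100a16, and those in distal tubule 3.96 for S100a6, 1.07 for S100a11 and -1.23 for S100a13. Intercalated cells gave -3.33 for S100a6, -0.79 for S100a10 and -1.41 for S100a13, and principal cells -0.90 for S100a13. After UUO loop of Henle gave 1.47 for S100a10, 1.99 for S100a11 and 1.37 for S100a16, and distal tubule 5.43 for S100a6, 0.88 for S100a10, 2.29 for S100a11, 1.11 for S100a16 and -1.31 for S100a13. Intercalated cells gave -3.20 for S100a6, -0.96 for S100a10 and -1.50 for S100a13, and principal cells 2.18 for S100a6, 0.76 for S100a10 and -1.25 for S100a13.

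Some of these calls rested on 1 library. The intercalated values of S100a6 became -0.30 (adjusted p = 0.907) and -0.18 (adjusted p = 0.954) without N2. Those of S100a10 in intercalated cells were lost without N2, AN2, UIR, UIR1 or UIR2 after UIR (adjusted p up to 0.258) and without N2, AN2, UUO1 or UUO2 after UUO (up to 0.302). The UIR value of S100a11 in loop of Henle was lost without UIR (adjusted p = 0.0604). The UUO values of S100a13 were lost without UUO1 or UUO2 in distal tubule (up to 0.139), intercalated (up to 0.108) and principal cells (up to 0.391), and those of S100a16 in distal tubule (0.202) and loop of Henle (0.0658) and of S100a6 in principal cells (0.059) without UUO1. The S100a6 value of principal cells after UUO turned to -2.19 (adjusted p = 0.00372) with each cell named by its own markers and to -1.53 (adjusted p = 0.143) with free RNA subtracted. The S100a10 value of principal cells was lost without Ctrl, N2 or AN1 (up to 0.082). S100a6 in distal tubule kept its call with each library left out, at 3.37 to 7.39 after UIR (lowest without Ctrl, highest without AN1) and 4.83 to 8.86 after UUO. Both of these calls were lost with free RNA subtracted.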

How the results depend on the processing

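Of 100 called member results, 42 kept direction and call under every alternative run and 5 reversed in at least 1. UIR against control had 23 calls (22 higher, 1 lower) and UUO against control 26 (22 higher, 4 lower). Leaving out 1 library gave 19 to 23 and 21 to 26, and a mitochondrial limit of 15%, which left 28 pairs to test, gave 9 and 10. UUO against UIR had 9 calls, 3 to 9 with 1 library left out (5 without UIR1, 3 without UIR2), 21 with no low-count filter, 5 with 15% of doublet scores removed, 4 with each cell named by its own markers and 5 with at least 50 cells per pool. With the replicate number as a block it had 19 calls, and the empty droplets 0. In no class did all 3 same-number pairs correlate above 0.1. Of the 3 UIR libraries 1 or 2 correlated best with their own number, so the numbers were not taken as pairs. The libraries UIR and UUO, which carry no number, correlated at 0.275 to 0.469 in every class examined but PT (-0.0782), and at 0.459 in empty droplets.

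The pools gave 18 calls, 17 to 19 with 1 library left out. The interactions gave 24, 17 to 27 with 1 library left out, 0 under the 15% mitochondrial limit (26 tested), 13 with 15% of doublet scores removed and 5 with at least 50 cells per pool. In empty droplets the 0 calls of UIR against control became 3 without the N libraries and 7 with barcodes of ranks 45000 to 90000. Those of UUO against control became 2 with DESeq2, 3 without the N libraries, 9 with those ranks, and 0 to 1 with 1 library left out (1 without N2). Those of UUO against UIR became 6 with those ranks and stayed at 0 in both UIR against control and UUO against UIR with 1 library left out. The shares of all genes called in the empty droplets under these alternatives are not given here.

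Directions that turned, as log2 differences, were these. With those ranks as empty droplets, S100a11 gave 1.15 for UIR against control (reported as -0.05), S100a8 4.56 and S100a9 3.76 for UUO against control, and S100a1 -0.81, S100a8 3.43 and S100a9 3.53 for UUO against UIR. Without the N libraries S100a8 gave 4.35 and S100a9 5.06 for UUO against control in empty droplets. With each cell named by its own markers, S100a10 in Fibro 2 gave -0.016 and S100a6 in cDC1 -0.15 for UUO against UIR, and as differences from the PT effect S100a4 in loop of Henle gave -3.28 (UIR) and S100a6 in principal cells -1.61 (UIR) and -2.19 (UUO). With free RNA subtracted, S100a6 gave 0.31 in intercalated cells (UIR), -4.43 in loop of Henle (UUO, edgeR adjusted p = 0.0026) and -1.53 in principal cells (UUO), and with the 15% limit S100a10 in principal cells gave -0.042 (UUO). The cause was not tested in any of them. The alternative without the S100g-led principal cluster was chosen after seeing the data.

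In PT, cell numbers limit what UUO can show, and members at 0 in control give ratios to a floor only.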

Other observations

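Podocytes and endothelial cells were in neither the tubular, the stromal nor the immune cells compared above, and their values are given without a test. S100a6 in podocytes, the filter cells of the glomerulus, was at 0 to 19.0 CPM in the 5 control libraries, 160.0 to 194 CPM in the 3 UIR libraries and 32.4 to 52.5 CPM in the 2 UUO libraries with 20 podocytes or more, so the groups did not overlap. These were 29.3 to 43.8% of the level in the empty droplets of the UIR libraries and 4.72 to 8.96% in UUO, and the part of free RNA was not tested. S100a11 in podocytes stood at 1193 to 1653, 1122 to 1333 and 1338 to 1355 CPM, with overlap. In endothelial cells S100a6 was at 942 to 1107 CPM in control, 856 to 1144 CPM in UIR and 1269 to 1523 CPM in UUO, and S100a1 at 261 to 345, 210 to 308 and 175 to 225 CPM. The UUO libraries lay above the other libraries for S100a6, and below the controls for S100a1.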
